A study of Mus musculus with 23 samples.

Results

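The basement membrane is the thin sheet of matrix that epithelial cells lay down under their basal side. The 9 genes of this sheet described here were followed through 23 RNA libraries of cultured mouse pancreatic tumour cells. They were taken by symbol from the deposited count table, and all 9 of 9 symbols were found among its 27207 genes. They are the laminin chains Lama3, Lama5, Lamb1, Lamb3 and Lamc1, the collagen IV chains Col4a1 and Col4a2, the linker nidogen-1 (Nid1) and perlecan (Hspg2).

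A laminin is a cross-shaped trimer of an α, a β and a γ chain, and laminins assemble into the first network that coats the cell surface. Collagen IV, usually a trimer of Col4a1 and Col4a2 products in the same sheet, forms the covalently crosslinked second network. Nidogens and the heparan sulfate proteoglycan perlecan bridge the networks. In epithelia, the laminin that holds the products of Lama3 and Lamb3 binds the integrin of hemidesmosomes, the junctions that tie keratin filaments to the basement membrane, whereas the laminin with those of Lama5, Lamb1 and Lamc1 is the common laminin of ductal and glandular epithelium.

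The study compared primary tumour cells in flat culture and as organoids in 2 matrices. KC cells (Ptf1a Cre/+), all from 1 mouse, gave 20 libraries: 6 from cells on plastic (2D), 3 from organoids at day 13 in growth factor-reduced Matrigel, 3 from organoids at day 7 in floating rat-tail collagen I, and 5 and 3 from organoids at day 13 in floating collagen, in a first and a second batch. KPC cells (Pdx1 Cre/+), also from 1 mouse, gave 3 libraries of day 13 organoids in floating collagen in the second batch. The 2D, Matrigel and day 7 libraries belong to the first batch, and all cells were grown in DMEM with high glucose and serum. The lines differ in further alleles, which are not reported here. Each genotype is thus 1 cell line, so that genotype, line and animal cannot be told apart. Organoids were freed with collagenase before lysis, while 2D cells were lysed directly. Matrigel is an extract of a mouse tumour and itself holds laminin, collagen IV, nidogen and perlecan.

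The smallest library held 1221451 counts (unique molecules), the median one 1845921 and the largest 2471058. No 2 libraries of a group agreed within sampling noise. The study's text describes the Matrigel, day 7 and first-batch day 13 collagen libraries as separate experiments, each on cells of the 1 line. For the 2D and second-batch libraries the sources used here do not say whether replicates were separate cultures, and their spread may be technical. The 2D libraries stood in 2 trios: the chi-square per degree of freedom between them was 21.6 to 33.7, against 1.27 to 2.90 inside a trio, and mitochondrial genes took 4.99 to 5.76% of counts in replicates 1 to 3 and 2.51 to 3.01% in replicates 4 to 6. The epithelial markers Epcam, Cdh1, Krt7, Krt8, Krt18, Krt19 and Sox9 summed to 7118 to 13912 CPM (counts per 1000000 counts of the library). A list of 9 fibroblast markers summed to 34.6 to 209, and 5 endothelial markers to 2.65 at most, with Kdr and Emcn at 0 in every library. These sums do not separate a cell type from a low level in the tumour cells, and in bulk RNA fewer cells of a type and less RNA per cell cannot be told apart.

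All CPM are scaled by the TMM method, which corrects for differences in RNA composition between libraries. The reads come from the 3′ ends of transcripts, so that a CPM counts molecules and was not divided by gene length, and levels are compared between libraries of 1 gene. Of the 9 genes, 8 were detected in every library. Lama3 was at 0 in 1 library and had 307 counts in all, against 772 for Hspg2, the next lowest, and 3723 for Col4a1, the highest. It passed the filter on low counts (about 5.42 CPM in at least 3 libraries) only through the Matrigel, second-batch collagen and KPC libraries.

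Lama3 and Lamb3, chains of the hemidesmosomal laminin, had the widest relative range of group means among the 9. Lama3 (chromosome 18:12333819-12583013, plus strand, GRCm38) encodes its α chain. Its level was 16.0, 12.6 and 13.3 CPM in the 3 Matrigel libraries, against 0.461, 2.38, 0.951, 0.890 and 3.66 in collagen at day 13 of the same batch. At day 7 in collagen it was 0, 1.16 and 0.424, and in 2D cells it ran from 0.454 to 1.17 with a median of 0.972. Every Matrigel library was above every other library of the first batch, and the 2D, day 7 and day 13 collagen libraries of that batch overlapped at counts of 0 to 7. In the second batch Lama3 was at 8.56, 12.5 and 13.9 CPM in KC collagen organoids. The KPC organoids held 22.8, 19.6 and 33.6 CPM, the highest group for Lama3. KC organoids from collagen at day 13 thus overlapped the Matrigel libraries in the second batch and the 2D libraries in the first.

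Lamb3 (chromosome 1:193207699-193343878, plus strand) encodes the matching β chain, and its gene lies across 6 others, among them Hsd11b1 and G0s2 on the opposite strand. None of these overlaps Lamb3 near its annotated 3′ end, where the reads come from. In 2D cells it ran from 4.68 to 25.1 CPM with a median of 12.1, below every organoid library. In Matrigel it was 70.8, 70.6 and 79.9 CPM, and at day 7 in collagen 49.2, 52.8 and 89.0. The day 13 collagen libraries of the first batch were split for Lamb3, with 32.7, 29.1 and 31.4 CPM in replicates 1 to 3 and 61.4 and 71.5 in replicates 4 and 5. In the second batch KC organoids held 83.6, 82.5 and 74.2 CPM and KPC organoids 60.9, 70.2 and 65.6.

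Lama5 (chromosome 2:180176373-180225859, minus strand), the α chain of the common epithelial laminin, was highest in Matrigel. It was at 129, 123 and 127 CPM there, above every other library of the study. Collagen at day 13 held 63.6, 73.9, 72.3, 79.2 and 67.4 CPM in the first batch and 53.3, 55.5 and 58.3 in the second. The day 7 libraries spread from 59.9 over 75.5 to 113, across the 2D range of 70.6 to 100 with its median of 75.5. KPC organoids, at 61.6, 51.8 and 53.5 CPM, overlapped KC organoids of their batch.

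Lamb1 (chromosome 12:31265234-31329644, plus strand) encodes the β chain of this laminin. Its highest levels were at day 7 in collagen, with 42.4, 38.9 and 69.1 CPM, and in Matrigel, with 39.1, 43.3 and 45.8, and these groups overlapped. The 2D libraries lay below them, at 28.1 to 36.3 with a median of 31.1. All 11 collagen libraries of day 13, KC and KPC, lay lower still: the first batch held 18.0, 24.8, 18.1, 27.6 and 18.8, the second 21.1, 22.9 and 24.5, and KPC organoids 22.2, 20.2 and 20.5.

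Lamc1 (chromosome 1:153218922-153332786, minus strand), the γ chain of most laminins, differed less. It was at 39.0, 49.3 and 79.7 CPM at day 7 and at 47.7, 46.8 and 38.2 in Matrigel. In collagen at day 13 it was 24.9, 33.8, 36.6, 42.3 and 27.2 in the first batch and 35.5, 24.96 and 41.7 in the second, with 39.4, 41.6 and 31.0 in KPC organoids. Each of these groups overlapped its neighbour in the order of means. The 2D libraries were split for Lamc1, at 18.1, 19.3 and 30.4 CPM in replicates 1 to 3 and 36.3, 39.6 and 36.3 in replicates 4 to 6.

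Col4a1 and Col4a2 lie head to head on chromosome 8 and are transcribed in opposite directions from a shared promoter region. Col4a1 spans 11198423 to 11312826 on the minus strand and Col4a2 spans 11312805 to 11449287 on the plus strand. Their RefSeq promoter windows, each of 300 bases around a start of transcription, overlap over 78 bases (11312777 to 11312854). They are shown because this stretch is common to 2 members whose levels were compared, each written 5′ to 3′ on its own strand with the shared bases in capitals:
Col4a1, chr8:11312777-11313076, minus strand: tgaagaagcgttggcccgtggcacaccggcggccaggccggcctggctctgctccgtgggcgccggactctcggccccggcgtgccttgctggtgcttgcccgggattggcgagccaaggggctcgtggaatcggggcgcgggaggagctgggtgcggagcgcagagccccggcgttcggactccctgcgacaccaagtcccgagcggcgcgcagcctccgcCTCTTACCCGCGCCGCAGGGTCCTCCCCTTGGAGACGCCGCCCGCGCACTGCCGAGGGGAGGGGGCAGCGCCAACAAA
Col4a2, chr8:11312555-11312854, plus strand: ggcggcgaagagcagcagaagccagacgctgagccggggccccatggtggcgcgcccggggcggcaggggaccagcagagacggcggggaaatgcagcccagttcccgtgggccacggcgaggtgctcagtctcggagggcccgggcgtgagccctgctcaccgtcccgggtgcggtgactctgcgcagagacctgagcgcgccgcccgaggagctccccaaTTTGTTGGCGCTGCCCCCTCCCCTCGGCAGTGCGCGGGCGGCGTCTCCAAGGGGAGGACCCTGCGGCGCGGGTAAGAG
The capitals of one are the reverse complement of those of the other, and G and C make up 73.1% of them. On either strand, the GC box letters GGGCGG stood in the shared stretch and in the windows of 6 of the 7 members that have one, which were Lama5, Lamb1, Col4a1, Col4a2, Nid1 and Hspg2. They stood in 35.7% of all 32851 windows. The letters CCAAT were found for Lamb1, Col4a1, Col4a2 and Nid1 and in 37.4% of all windows, and those of Col4a2 end on the first base of the shared stretch. The letters TATAAA (13.6% of windows) and TGANTCA, the AP-1 motif (7.81%), were in no member's window, and GGAATG, the TEAD motif (14.7%), was in those of Lamb3 and Nid1. Lama3 and Lamc1 have no window in the table.

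Col4a1 was highest at day 7 in collagen, at 82.9, 117 and 185 CPM. The 5 collagen libraries of day 13 in the first batch lay between 65.3 and 77.3, and the Matrigel libraries at 77.0, 70.6 and 66.6 overlapped them. The 2D libraries spread from 49.0 to 92.1 around a median of 68.9. The second batch held more, with 98.7, 97.1 and 92.7 in KC and 78.7, 104 and 105 in KPC organoids.

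Col4a2 was at 42.9, 50.4 and 78.0 CPM at day 7, and KC organoids of the second batch, at 60.6, 70.0 and 66.2, lay inside that range. The first-batch collagen libraries of day 13 were at 31.3, 33.8, 43.3, 37.4 and 50.1, the Matrigel libraries at 45.8, 36.0 and 34.8 and the 2D libraries at 16.4 to 42.0 with a median of 35.4. KPC organoids had 38.1, 47.0 and 42.0 CPM, all below the KC organoids of their batch while the Col4a1 levels of these groups overlapped.

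Nid1 (chromosome 13:13437551-13512269, plus strand), which links laminin to collagen IV, was at 69.2, 81.6 and 85.6 CPM at day 7, above every other library. KPC organoids followed with 63.5, 66.0 and 41.5. Collagen organoids of KC cells at day 13 held 22.6, 24.3, 41.4, 41.8 and 41.8 CPM in the first batch and 36.2, 26.3 and 45.7 in the second. Matrigel organoids, at 37.5, 37.7 and 31.3, lay inside that range. In 2D cells it was 37.2 to 39.5 in replicates 1 to 3 and 25.2 to 26.8 in replicates 4 to 6, with no overlap between the trios.

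Hspg2 (chromosome 4:137468769-137570630, plus strand), the perlecan core protein gene, had the narrowest range of group means. It was at 21.5, 24.7 and 26.6 CPM in Matrigel and at 13.6, 25.8 and 25.4 at day 7. Collagen organoids of day 13 held 15.7, 13.3, 15.7, 19.6 and 17.8 in the first batch, 19.1, 19.4 and 14.6 in the second and 17.1, 11.3 and 15.2 in KPC cells. In 2D cells the lowest level was 11.7, the median 14.4 and the highest 21.2. Every group except Matrigel overlapped first-batch collagen at day 13.

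**Figure D1:**
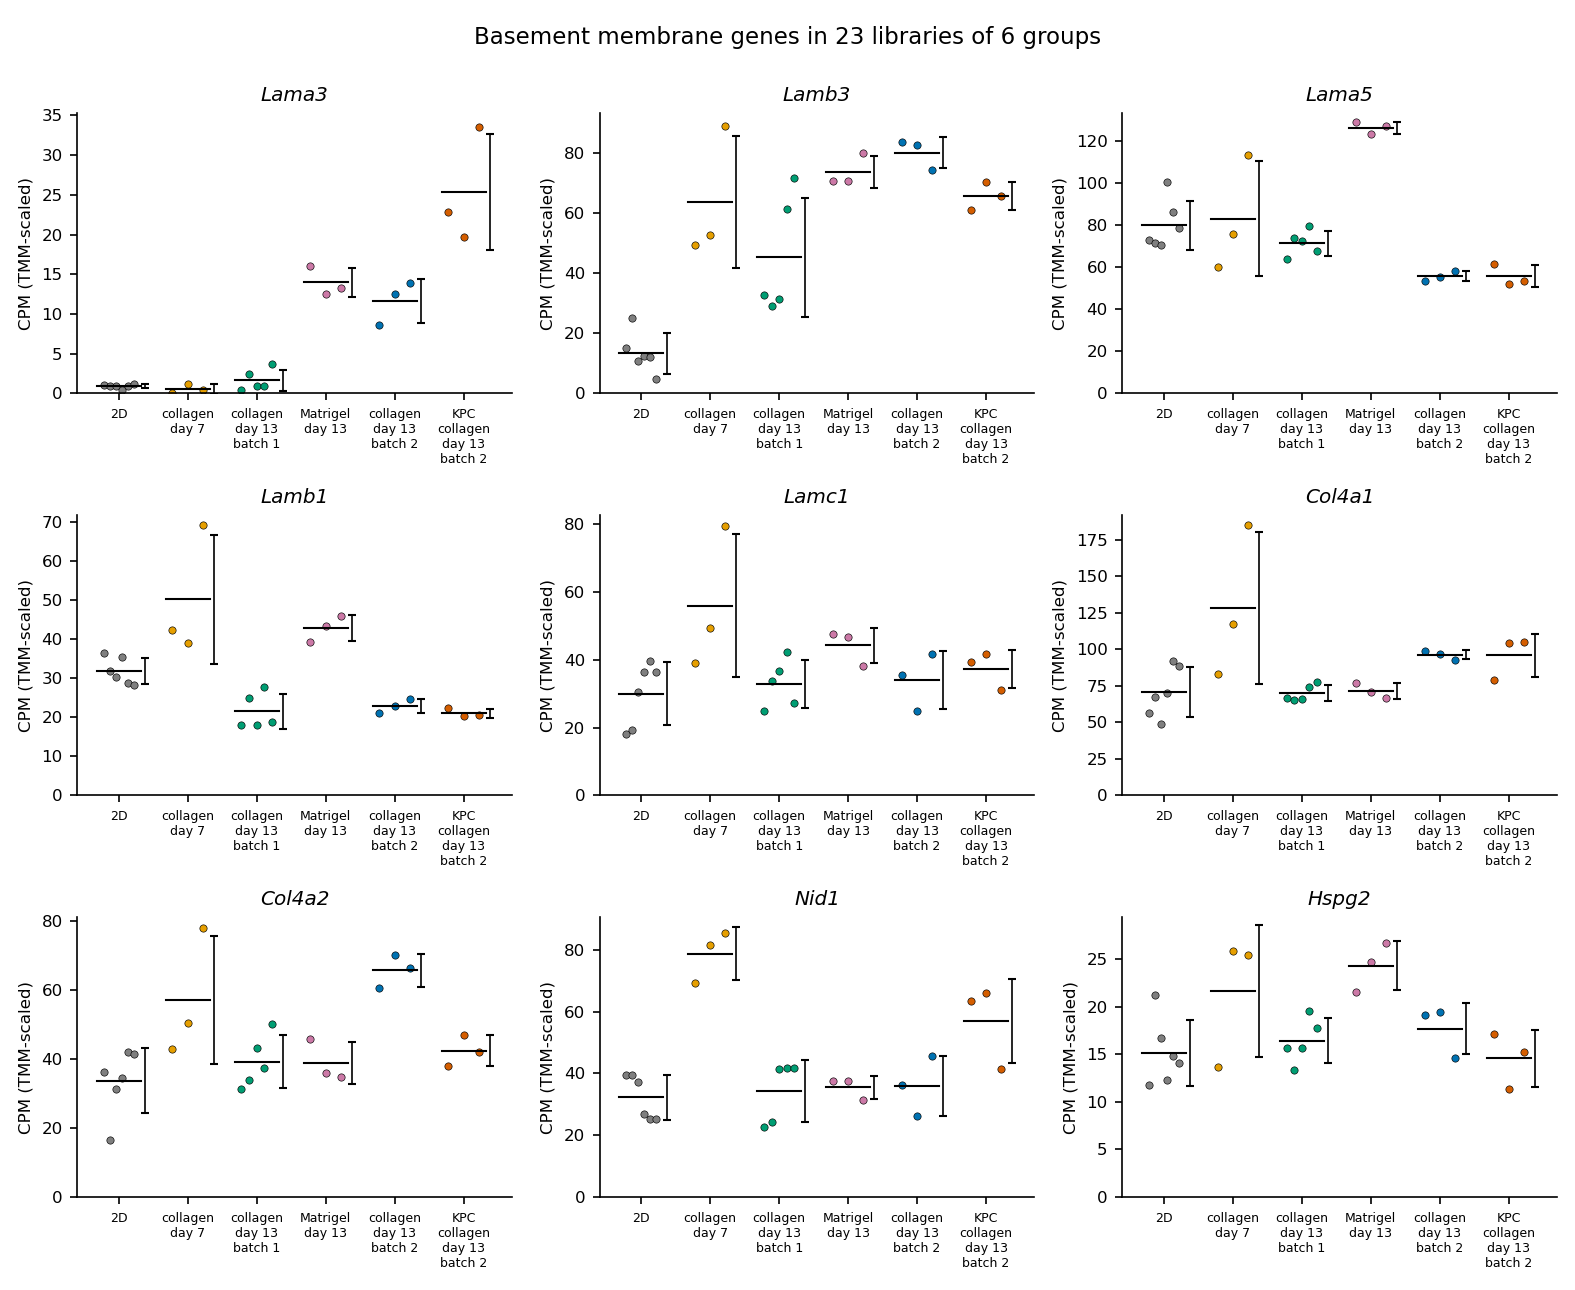
Level of each of the 9 basement membrane genes (TMM-scaled CPM, linear axis from 0) in 23 libraries. Each point is a library, the horizontal line is the group mean and the bar beside it 1 SD; Lama3 is near 0 in the first 3 groups and at 12.6 or more in Matrigel, Lamb3 is at 25.1 CPM or less in all 2D libraries and higher in all organoids, and Nid1 is at 69.2 CPM or more in the day 7 libraries alone.

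The first comparison asked how organoids in Matrigel differed from those in collagen at day 13, in libraries of 1 batch. All laminin chains had higher estimates in Matrigel, while the estimates of collagen IV and nidogen lay near 0. Lama5, Lamb1 and, more narrowly, Lamb3 passed the test. Lama3 did too, as description only for the reason given below. Of the 9 genes, 5 were called higher (adjusted p under 0.1 in edgeR's quasi-likelihood test, adjusted over 11144 genes) and none lower, where 12.9% of all tested genes were called, 6.62% higher and 6.29% lower. Their median log2 fold change was 0.55, that of all tested genes -0.01. Lama3 was higher by 3.06 ± 0.36 on the log2 scale (estimate ± SE, adjusted p = 1.44e-06), with groups that did not overlap. Within this comparison, Lama3 passed the filter on low counts through the Matrigel libraries alone. Its p and lack of overlap are therefore given as description. The counts of calls and of groups without overlap in this comparison include Lama3. Because several of its collagen libraries held 1 or 2 counts, its ratio is also given from summed counts, 93 in Matrigel against 17 in collagen, as 8.74-fold (95% exact counting interval 5.18 to 15.6). Lamb1 was higher by 0.98 ± 0.17 (adjusted p = 0.000335) and Lama5 by 0.82 ± 0.14 (adjusted p = 0.000344), both without overlap. Hspg2 (0.55 ± 0.20, adjusted p = 0.0802) and Lamb3 (0.71 ± 0.26, adjusted p = 0.0929) passed more narrowly. In all, 4 of the 9 had groups that did not overlap, against 19.5% of tested genes. Lamc1 (0.43 ± 0.23), Nid1 (0.06 ± 0.22), Col4a1 (0.03 ± 0.19) and Col4a2 (-0.00 ± 0.21) did not pass.

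The calls of Lama5 and Lamb1 held under every alternative. That of Lama3 did too, and is given as description for the reason above. Those of Lamb3 and Hspg2 ended when any 1 Matrigel library or any of collagen replicates 1 to 3 was left out (adjusted p 0.177 to 0.241 and 0.111 to 0.237), and with DESeq2 (0.139 and 0.111). Hspg2 also ended without the filter on low counts (0.137), with the replicate block (0.110) and with the trend on gene length removed (0.291). With the 8 KC collagen libraries of both batches in place of 5, Lama3 was higher by 1.52 ± 0.49 and Lamb3 by 0.35 ± 0.29 (adjusted p = 0.0546 and 0.545). Matrigel libraries also held more Epcam, an epithelial adhesion gene (log2 fold change 1.56 ± 0.18), and more Cd68 (1.02 ± 0.25), with the 3 leukocyte markers summing to 30.5 to 36.4 CPM against 11.98 to 21.9. Ptprc and Csf1r, the other leukocyte markers, were at means of 0.517 CPM or less in both groups, and the part of these in the result was not tested.

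The second comparison set the day 7 organoids, while branches extend, against day 13 in collagen, when a lumen has formed. Of the 9 genes, those of the laminin β and γ chains Lamb1 and Lamc1, collagen IV and nidogen-1 were higher at day 7. Perlecan was also called higher, by a call that ended under 8 of 9 settings. The test called 6 of 9 higher and 1 lower, where 55.1% of all tested genes were called, 28.1% higher and 27.1% lower, so that a call was common here in any gene. Lamb1 (1.22 ± 0.17, adjusted p = 1.40e-06) and Nid1 (1.20 ± 0.20, adjusted p = 1.89e-05) were 2.33-fold and 2.30-fold higher. Col4a1 (0.88 ± 0.19, adjusted p = 0.000336) was 1.84-fold and Lamc1 (0.76 ± 0.22, adjusted p = 0.00569) 1.70-fold higher. Col4a2 (0.55 ± 0.20, adjusted p = 0.0232) and Hspg2 (0.41 ± 0.20, adjusted p = 0.0870) followed. Lamb1, Nid1 and Col4a1 had groups without overlap, 3 of 9 against 48.3% of tested genes. The estimates of Lama5 (0.22 ± 0.15) and Lamb3 (0.50 ± 0.26) did not pass. Lama3 was called lower (-1.41 ± 0.69, adjusted p = 0.0933) from 4 against 17 counts in all, a ratio of 0.354 whose counting interval of 0.0866 to 1.08 includes 1.

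One library weighed on this count. Day 7 replicate 3 was the highest of its group for 7 of the 9 genes (not Lama3 and Hspg2), and without it 3 of 9 genes were called (Lamb1, Col4a1 and Nid1), with Lamc1 at 0.42 (adjusted p = 0.146), Col4a2 at 0.26 (0.331) and Hspg2 at 0.29 (0.324). The call of Hspg2 ended under 8 of 9 settings and without day 7 replicate 2 or 3 or day 13 replicate 1, 2 or 3 (highest adjusted p = 0.375), that of Lama3 under 5 of 9 settings and without day 7 replicate 1 or 3 or day 13 replicate 2 or 5 (0.312), and that of Col4a2 with both batches of day 13 collagen (0.24, adjusted p = 0.418). Of the 7 epithelial markers 2 were called higher and 3 lower at day 7, with Epcam lowest (-3.27 ± 0.27), and Cd68 was lower (-1.80 ± 0.34). The 7 epithelial markers summed to 11226 to 12658 CPM at day 7 and 9591 to 11593 at day 13. The 9 fibroblast markers summed to 59.7 to 101 and 54.8 to 112. Their part in the result was not tested.

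2D cells were set against each kind of organoid. Lamb3 was lower in 2D cells in all 3 comparisons, and no other of the 9 genes was. Against collagen at day 7, 7 of 9 genes were lower in 2D cells and none higher, where 51.2% of tested genes were called, 26.5% higher and 24.7% lower. Lamb3 was lower by 2.34 ± 0.30 on the log2 scale (5.05-fold, adjusted p = 1.06e-06) and Nid1 by 1.34 ± 0.20 (2.54-fold, adjusted p = 9.12e-06). Lamc1 (-0.84 ± 0.22), Col4a1 (-0.84 ± 0.18), Col4a2 (-0.73 ± 0.20), Lamb1 (-0.66 ± 0.16) and Hspg2 (-0.56 ± 0.20) were lower at adjusted p of 0.000652 to 0.0274. Lama5 (-0.04 ± 0.15) did not pass, and Lama3 (0.59 ± 0.79) rested on 8 against 4 counts. Lamb3, Nid1, Lamb1 and Col4a2 did not overlap, 4 of 9 against 32.3% of tested genes. The call of Hspg2 ended with 2D replicates 1 to 3 alone (adjusted p = 0.209), with the length trend removed (0.280) and without day 7 replicate 2 or 3 (0.172 and 0.153), and that of Col4a2 without day 7 replicate 3 (0.107).

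Against collagen at day 13 of the same batch, 2 of 9 genes passed, 1 in each direction, where 49.6% of tested genes did, 26.3% higher and 23.3% lower. Lamb3 was 3.58-fold lower in 2D cells (-1.84 ± 0.28, adjusted p = 1.27e-05). Lamb1 was 1.47-fold higher (0.55 ± 0.16, adjusted p = 0.00631). Both had groups without overlap, 2 of 9 against 20.3% of tested genes. The other 7 estimates lay between -0.82 for Lama3 and 0.18 for Lama5. With library size alone as the scaling, which moved the median of all genes by -0.20 in this comparison, Lamb1 was at 0.34 (adjusted p = 0.116) and 1 gene was called. With the 8 KC collagen libraries of both batches 5 genes were called, namely Lama3 (-2.35), Lama5 (0.29), Lamb1, Lamb3 and Col4a2 (-0.50), and with 2D replicates 1 to 3 alone 4 were.

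Against Matrigel organoids, 6 of 9 genes were lower in 2D cells and none higher, where 42% of tested genes were called, 21.9% higher and 20% lower. Lama3 was lower by 3.88 ± 0.42 (adjusted p = 2.21e-07), or 15.9-fold by summed counts (counting interval 7.73 to 37.9). It had 8 counts in 6 libraries of 2D cells and 93 in 3 of Matrigel. Here it passed the filter on low counts through Matrigel alone, so its p and lack of overlap are given as description. The counts of calls and of groups without overlap against Matrigel include Lama3. Lamb3 was lower by 2.54 ± 0.29 (5.84-fold, adjusted p = 6.45e-07). Lama5 (-0.64 ± 0.14, adjusted p = 0.00123), Hspg2 (-0.70 ± 0.20, adjusted p = 0.00915), Lamb1 (-0.43 ± 0.17, adjusted p = 0.0480) and Lamc1 (-0.50 ± 0.23, adjusted p = 0.0895) were lower by less. Col4a1 (0.01 ± 0.19), Col4a2 (-0.18 ± 0.21) and Nid1 (-0.20 ± 0.22) did not pass. All called genes except Lamc1 had groups without overlap, 5 of 9 against 26.7% of tested genes. With the gene length trend removed, Lamb1 (adjusted p = 0.454), Lamc1 (0.276) and Hspg2 (0.450) lost their calls. Lamc1 also lost it without 2D replicate 1 or 2 or Matrigel replicate 1 or 2 (0.141 to 0.236) and with 2D replicates 4 to 6 alone (0.318), and Lamb1 without Matrigel replicate 2 or 3 (0.122 and 0.137) and with 2D replicates 1 to 3 alone (0.148). The 3 comparisons share the 2D libraries, and 2D cells also differed from organoids in how they were lysed. The 9 fibroblast markers summed to 67.3 to 209 CPM in 2D cells and to at most 112 in organoids. The 7 epithelial markers summed to 7118 to 10251 CPM in 2D cells, below the day 7 libraries (11226 to 12658) and the Matrigel libraries (10823 to 12360) and overlapping first-batch collagen at day 13 (9591 to 11593). Against Matrigel 5 of these 7 were lower in 2D cells and none higher, with Epcam at -3.09 ± 0.19, and Cd68 was lower (-1.85 ± 0.27). Against day 7, 4 of the 7 were lower and 2 higher, with estimates from -1.19 to 1.73, and Cd68 was higher (0.97). Against day 13, 4 were lower and 1 higher, and Cd68 was lower (-0.83). The part of these markers in the results was not tested.

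KPC organoids were compared with KC organoids of the same batch, matrix and day. Lama3 was 2.19-fold higher in KPC organoids, and 3 of 9 genes passed in all, 2 higher and 1 lower, where 19.9% of tested genes did, 9.57% higher and 10.4% lower. Lama3 (1.13 ± 0.31, adjusted p = 0.0132) rested on 133 against 52 counts, a ratio of 2.22 with a counting interval of 1.60 to 3.11. Nid1 was higher (0.65 ± 0.25, adjusted p = 0.0803) and Col4a2 lower (-0.63 ± 0.23, adjusted p = 0.0687). Col4a1, transcribed from the other side of the same promoter region, did not pass (-0.00 ± 0.22). Lama5 (-0.00 ± 0.18), Lamb1 (-0.12 ± 0.23), Lamc1 (0.12 ± 0.28), Lamb3 (-0.29 ± 0.30) and Hspg2 (-0.28 ± 0.26) did not pass. Lama3, Col4a2 and Lamb3 had groups without overlap, 3 of 9 against 37.3% of tested genes. Among markers, Cd68 was lower in KPC organoids (-1.32 ± 0.37), 1 epithelial marker was higher and 1 lower of 7, none of 4 tested fibroblast markers passed, and 1 of 3 tested parietal endoderm markers was higher and 2 lower. The epithelial markers summed to 9766 to 11290 CPM in KPC and 12323 to 13912 in KC organoids, and the part of these in the result was not tested.

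None of the 3 calls held when each library was left out in turn. Lama3 was at 0.86 (adjusted p = 0.116) without KPC replicate 3. Nid1 ended without KC replicate 1 or 2 or KPC replicate 1 or 2 (adjusted p 0.161 to 0.318), with DESeq2 (0.113), with DESeq2 size factors in edgeR (0.103) and with the replicate block (0.128). Col4a2 ended without KC replicate 2 or 3 or KPC replicate 1 or 3 (0.143 to 0.195), with library size alone (0.271) and with the KC libraries of both batches (-0.20, adjusted p = 0.629).

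The last comparison measured how far the same cells, matrix and day differed between the batches of KC collagen organoids. Lama3 and Lamb3 were both higher in the second batch, as was collagen IV. Of the 9 genes, 4 were higher and 1 lower, where 37.3% of tested genes were called, 19.3% higher and 18.1% lower. Lama3 was higher by 2.79 ± 0.40 (adjusted p = 7.90e-06), or 7.20-fold by summed counts (counting interval 4.10 to 13.3). Here it passed the filter on low counts through the second batch alone, so its p and lack of overlap are given as description. The counts of calls and of groups without overlap between the batches include Lama3. Lamb3 (0.83 ± 0.27, adjusted p = 0.0196) and Col4a2 (0.75 ± 0.20, adjusted p = 0.00643) were 1.77-fold and 1.68-fold higher. Col4a1 (0.46 ± 0.19, adjusted p = 0.0767) was higher and Lama5 (-0.36 ± 0.16, adjusted p = 0.0958) lower. The groups of these 5 did not overlap, 5 of 9 against 35.9% of tested genes. The mitochondrial share was 5.59 to 6.18% of counts in the second batch and 3.01 to 4.83% in the first. The epithelial markers summed to 12323 to 13912 CPM against 9591 to 11593, with 3 of 7 higher and 1 lower, and the fibroblast markers to 49.4 to 66.2 against 54.8 to 112, with 1 of 4 tested lower. The part of these in the result was not tested. Lamb1 (0.09 ± 0.20), Lamc1 (0.05 ± 0.25), Nid1 (0.07 ± 0.23) and Hspg2 (0.11 ± 0.22) did not pass. The calls of Col4a1 and Lama5 ended without any 1 second-batch library, and without first-batch replicate 1, 2 or 3 and 2, 3 or 4 respectively (adjusted p 0.122 to 0.168 and 0.134 to 0.217). Lama5 also ended with the replicate block (-0.13, adjusted p = 0.710), with DESeq2 (0.139), with its size factors (0.105) and without the filter (0.214), and Col4a1 with library size alone (0.337) and without the length trend (0.187). Beside this difference of Lama3 between batches, 2.79, its difference between Matrigel and first-batch collagen was 3.06.

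**Figure D2:**
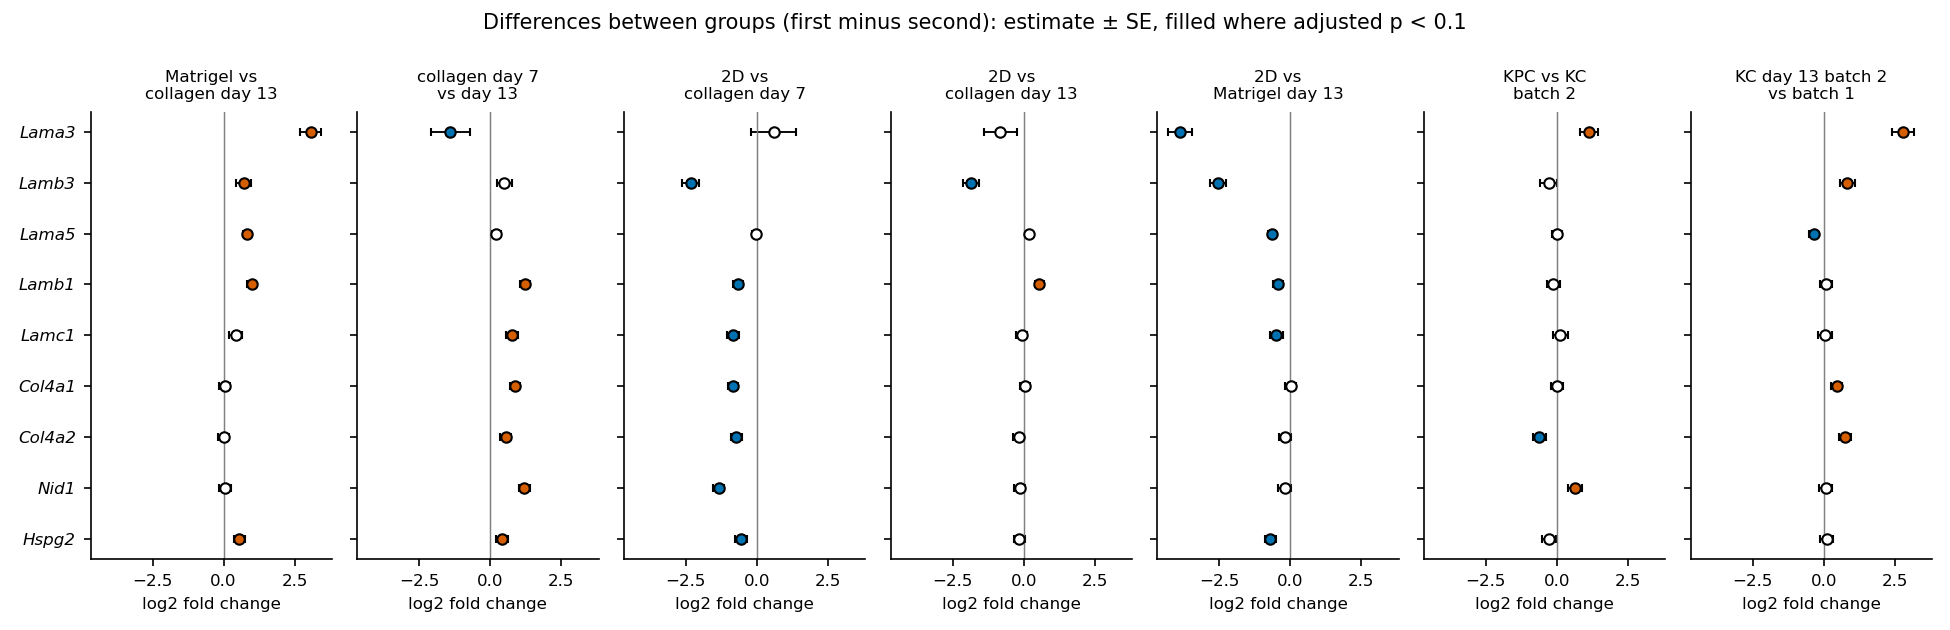
Log2 fold change with its SE for the 9 genes in 7 comparisons (the first group minus the second, 1 edgeR fit of 23 libraries). Orange points passed as higher, blue points as lower and white points did not pass at an adjusted p of 0.1; Lamb3 is far below 0 in the 3 comparisons of 2D cells, and Lama3 is far above 0 in Matrigel and in the second batch.

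Related chains did not keep 1 ratio across the groups, as the plot of count ratios in each library shows. Lamb3 per Lamb1 was 0.167 to 0.788 in 2D cells, 1.16 to 1.36 at day 7 and 1.63 to 1.81 in Matrigel, ranges that did not overlap. It was 1.17 to 3.81 in first-batch collagen at day 13, 3.03 to 3.97 in the second batch and 2.74 to 3.47 in KPC organoids. Col4a1 per Col4a2 was 1.39 to 1.63 in KC and 2.07 to 2.50 in KPC organoids of the second batch, without overlap. In the first batch the groups overlapped one another. They were at 1.56 to 4.12 in 2D cells, 1.93 to 2.375 at day 7, 1.53 to 2.13 at day 13 and 1.68 to 1.96 in Matrigel. These ratios show unequal change between chains, not the make-up of a trimer, and were not tested.

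**Figure D3:**
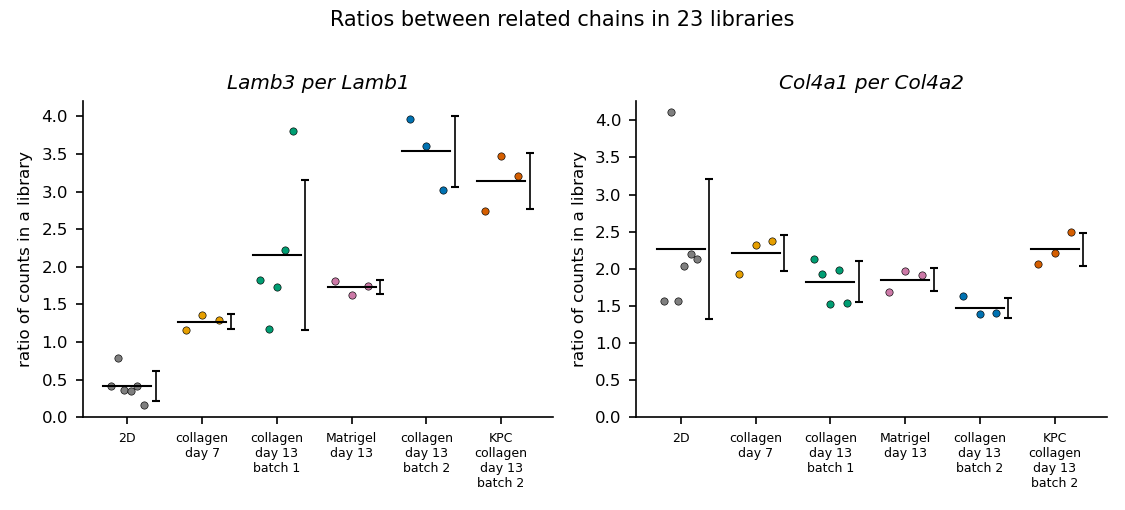
Ratio of counts of related chains in each of 23 libraries (linear axis from 0), with the group mean as a line and 1 SD as a bar. Lamb3 per Lamb1 is at most 0.788 in the 2D libraries and at least 1.16 in the organoid libraries, and Col4a1 per Col4a2 is lower in KC than in KPC organoids of the second batch.

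Other parts of the basement membrane were read from lists of related genes. Their counts of calls stand beside the share of all tested genes called in either direction, which was 12.9% for Matrigel against collagen, 55.1% for day 7 against day 13, 51.2%, 49.6% and 42% for 2D cells against day 7, day 13 and Matrigel, 19.9% for KPC against KC and 37.3% for the batches. Of the other laminin chains, Lama1, Lama2 and Lamc3 had no count in any library, Lama4 was under the filter, and Lamb2 was tested. Lama1 is the α chain that marks the laminin of Matrigel's source tumour, and it was at 0 in the Matrigel libraries too. With Lama1, 6 markers of parietal endoderm, the cell type that this tumour resembles, summed to 155 to 181 CPM in Matrigel and 214 to 278 in collagen at day 13. They also summed to 96.0 to 258 CPM in 2D cells, so that the sum does not measure that cell type. Whether RNA of the source tumour was present was not tested. Lamb2, a β chain, was lower at day 7 than at day 13 (-0.57 ± 0.20, adjusted p = 0.0184) and lower in 2D cells than in Matrigel (-0.42 ± 0.19, adjusted p = 0.0834). Nid2, the second nidogen, was at means of 0.992 to 5.81 CPM and was lower at day 7 than at day 13 (-1.75 ± 0.58, adjusted p = 0.0153) where Nid1 was higher. Col4a5, a chain of the other collagen IV trimers, was also lower at day 7 (-0.92 ± 0.37, adjusted p = 0.0431). It rested on 19 counts at day 7 and 55 in first-batch collagen at day 13 (means of 2.77 and 5.16 CPM). Col4a1 was higher at day 7, as was Col4a2, whose call ended without day 7 replicate 3.

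Of 15 receptors and hemidesmosome genes, all tested, 8 were higher and 3 lower at day 7 than at day 13 (11 of 15 called, against 55.1% of tested genes). Among them were Itga6 (1.22 ± 0.15, adjusted p = 1.95e-07) and Itgb4 (0.46 ± 0.16, adjusted p = 0.0172), the laminin-binding integrin of hemidesmosomes, and its linker plectin, Plec (1.17 ± 0.18, adjusted p = 7.44e-06). In 2D cells 9 were lower and 2 higher than at day 7, 5 lower and 4 higher than in collagen at day 13, and 10 lower and 1 higher than in Matrigel (11, 9 and 11 of 15 called, against 51.2%, 49.6% and 42%). Itgb4 was lower in 2D cells each time (-1.47 ± 0.15, -1.01 ± 0.14 and -1.20 ± 0.16), as was Lamb3. In Matrigel 5 of 15 were higher than in collagen and none lower, against 12.9% called of all tested genes, with Itga2, a subunit of a collagen receptor, at 1.66 ± 0.17 (adjusted p = 1.22e-07). The second batch had 9 higher and 1 lower than the first (10 of 15, against 37.3%), and KPC organoids 2 higher and 2 lower than KC (4 of 15, against 19.9%), with Itgb4 lower (-0.90 ± 0.18, adjusted p = 0.00114).

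Of 14 tested further components of the sheet and its anchors, 4 were higher in Matrigel than in collagen and none lower (against 12.9% called of all tested genes). The largest change among all listed companions was that of Fbln2, fibulin-2, which binds nidogen and laminin: it was higher at day 7 than at day 13 by 3.05 ± 0.22 (adjusted p = 4.13e-11) and lower in 2D cells than at day 7 (-2.34 ± 0.21, adjusted p = 4.05e-09). At day 7, 3 of the 14 were higher and 5 lower (8 of 14, near the 55.1% of all tested genes). 2D cells had 5 higher and 3 lower than day 7, 6 higher and 3 lower than day 13 and 1 higher and 4 lower than Matrigel (8, 9 and 5 of 14, against 51.2%, 49.6% and 42%). Ecm1, an extracellular matrix glycoprotein, was lowest in that last comparison (-1.48 ± 0.13, adjusted p = 1.23e-08) and Sparc, a collagen-binding glycoprotein, highest among the called genes (0.74 ± 0.28, adjusted p = 0.0427). KPC organoids had 3 higher and 1 lower, with Efemp1, a fibulin, at 1.68 ± 0.22 (adjusted p = 6.06e-06), and the second batch 2 higher and 2 lower (4 of 14 each, against 19.9% and 37.3%).

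Of 26 tested enzymes and chaperones of assembly and secretion, no comparison had more than 15 calls, and they went both ways in each (5 of 26 in Matrigel against collagen, 15 at day 7 against day 13, 12, 14 and 8 in 2D cells against day 7, day 13 and Matrigel, 8 in KPC against KC and 7 between the batches). At 15 of 26, the day 7 count was near the 55.1% of all tested genes. At day 7, 6 were higher and 9 lower, with P3h2, a prolyl hydroxylase of collagen IV, lowest (-2.31 ± 0.65, adjusted p = 0.00477). P3h2 was also lowest in 2D cells against day 13 (-2.16 ± 0.57, adjusted p = 0.00369) and in Matrigel against collagen (-1.76 ± 0.61, adjusted p = 0.0722), at group means of 1.01 to 5.42 CPM. Tgm2, a crosslinking transglutaminase that binds nidogen, was highest in Matrigel (1.79 ± 0.21, adjusted p = 9.86e-07), where 3 were higher and 2 lower, and in 2D cells against day 7 (2.65 ± 0.28, adjusted p = 4.81e-08), where 6 were higher and 6 lower. Pxdn, the peroxidase that crosslinks collagen IV, was highest in 2D cells against day 13 (1.22 ± 0.29, adjusted p = 0.00148), with 6 higher and 8 lower, and against Matrigel 3 were higher and 5 lower. In KPC organoids 2 were higher and 6 lower, with Sulf2, a heparan sulfate editing enzyme, lowest (-1.97 ± 0.32, adjusted p = 9.90e-05). The second batch had 3 higher and 4 lower, with Crtap, part of a collagen prolyl hydroxylase complex, lowest (-1.62 ± 0.25, adjusted p = 2.19e-05), and Itga1, a collagen receptor subunit, highest of all companions (1.47 ± 0.20, adjusted p = 4.80e-06).

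**Figure D4:**
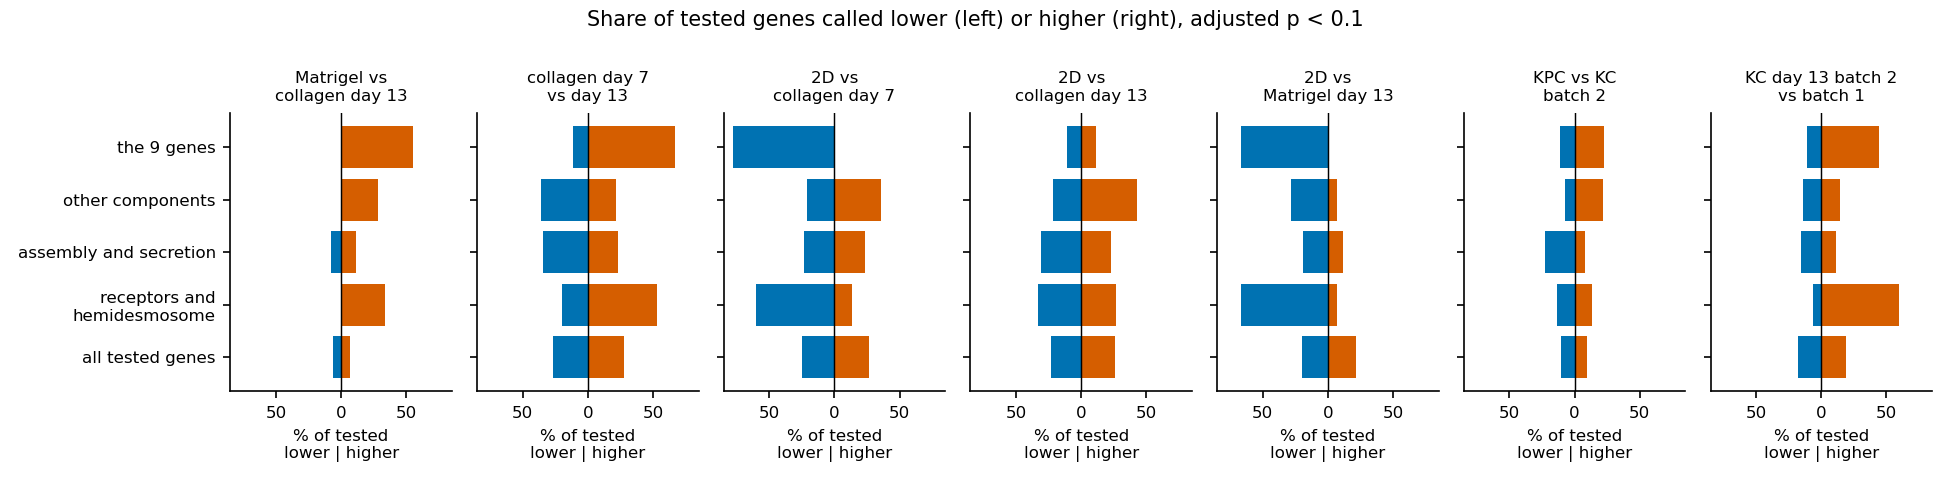
Share of tested genes called higher (to the right) or lower (to the left) at an adjusted p of 0.1, for the 9 basement membrane genes, 3 lists of related genes (14, 26 and 15 tested) and all 11144 tested genes, in 7 comparisons. The 9 genes and the receptors lie mostly on 1 side in the comparisons of 2D cells with day 7 and with Matrigel, while assembly genes and all tested genes lie on both sides.

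Across the 23 libraries, which share groups and batches, the levels of the 9 genes varied together in part (Pearson r of log2 CPM, given as a description). The closest pairs were Lama5 with Lamb1 (r = 0.73), Col4a1 with Col4a2 (0.70) and Lamc1 with Col4a1 (0.62). Lama3 was at 0.57 with Lamb3, its partner chain, and at -0.26 with Lamb1. Over all tested genes, Lama3 was most like Zmynd8, Galnt3 and Egfr (0.91, 0.90 and 0.90) and Lamb3 most like Kalrn, Capn5 and Birc6 (0.90, 0.90 and 0.89). For Lama5 the genes most alike were Cd44, Ctnnb1 and Pabpn1 (0.89, 0.89 and 0.84). Piezo2, F2r and Plat led for Lamb1 (0.89, 0.87 and 0.86), and Ep400, Nacc1 and Celf1 for Lamc1 (0.86, 0.83 and 0.83). Nmt1 and Atp2a2 were among the 3 most like Col4a1 (0.89 and 0.87), and Mtrex, Ago2 and Mapk1ip1l led for Col4a2 (0.86, 0.85 and 0.84). Nid1 was most like Sema3c, Prrc2a and Lratd1 (0.85, 0.83 and 0.82). Hspg2 had the weakest neighbours, Itgav, Pum2 and Kcnq1ot1 (0.75, 0.72 and 0.71).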

How the data were processed

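RNA of 23 libraries was sequenced from transcript 3′ ends. The deposited table holds raw counts of unique molecules per gene, which the authors made with the Drop-seq pipeline from reads aligned to GRCm38 with GENCODE gene definitions. Whether counting used strand is not given in the sources used here, so that reads of overlapping antisense genes cannot be told apart. Among the 9 genes, only Col4a1 is overlapped near its annotated 3′ end, by the antisense gene Gm15418. Genes were filtered with filterByExpr (11144 kept) and tested in edgeR 4.0.16 (R 4.3.3; TMM, 1 quasi-likelihood fit of 6 groups, Benjamini-Hochberg over all tested genes, threshold 0.1). The depth was 1221451 to 2471058 counts per library, and counting intervals cover counting error only. Simulated data with known changes were used to test the fit. The 9 genes are named in every comparison, as are the called related genes with the highest and lowest change, some called related genes chosen for their role, and the 3 genes most correlated with each. These genes and lists were chosen with earlier results of these data known. Alternatives were DESeq2 1.42.0, other scalings, no filter, the compared groups alone, a replicate block, removal of the trend on gene length (20 classes), a threshold of 0.05, both batches of KC collagen libraries, each library left out and, chosen after seeing the data, each trio of 2D libraries alone. Some genes and alleles are not reported here.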

Additional observations from a re-analysis of the deposited data

Results flagged for a closer look

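The Lama3 level of 2D replicate 4, 0.454 CPM, stood apart from the 5 other 2D libraries (0.955 to 1.17 CPM). Its gap to the nearest of them was 0.699 of the group's range, above Dixon's critical value. It rests on 1 count, and the other 2D libraries held 1 or 2. Of 18 groups of levels tested in this way, 1 was flagged, and chance flags about 5% of groups.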

How the results depend on the processing

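Of 35 calls among the 9 genes, 18 held under every alternative run, and no value changed sign while called. The 18 include the calls of Lama3 for Matrigel against collagen, 2D cells against Matrigel and the batches, which are given as description. The number called moved by more than 1.5 times as follows, and the cause was not tested except where fewer libraries or a stricter threshold set it. Matrigel against collagen at day 13 gave 3 with DESeq2 and 3 at a threshold of 0.05, in place of 5. 2D cells against collagen at day 13 gave 4 with 2D replicates 1 to 3 alone, 5 with both batches of collagen and 1 with library size alone, in place of 2. 2D cells against Matrigel gave 3 with the length trend removed, in place of 6. At a threshold of 0.05, KPC against KC gave 1 in place of 3 and the batches 3 in place of 5.

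With 1 library left out, the counts were 3 to 5 for Matrigel against collagen, 3 to 8 for day 7 against day 13, 5 to 7, 2 to 2 and 4 to 6 for 2D cells against day 7, day 13 and Matrigel, 1 to 2 for KPC against KC (main 3; 1 without KC replicate 2 or KPC replicate 1 or 3) and 3 to 5 for the batches (3 without first-batch replicate 2 or 3 or any second-batch library). Over all genes, Matrigel against collagen gave 1439 calls, 959 with library size alone and 874 and 959 without Matrigel replicate 1 and 3. KPC against KC gave 2221, and 3433 with these groups fitted alone.

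The replicate numbers did not pair the samples: of 23 same-numbered pairs, 2 had deviations correlated over 0.1 (range -0.12 to 0.19). With the number as a block, 4, 6, 7, 2, 7, 2 and 4 genes were called in the 7 comparisons in the order of the report, against 5, 7, 7, 2, 6, 3 and 5. Depth limits Lama3 most, with 0 to 7 counts per library in 14 libraries.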
